A study of Mus musculus with 42 samples.

Results

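Bulk RNA sequencing of 3 wild-type (WT) colon tumors was compared with that of 3 WT crypt isolates from the distal colon, 6 of the 42 libraries of a mouse study of the transcriptional corepressor MTG16 (gene *Cbfa2t3*). The tumors had been induced with azoxymethane (AOM), a carcinogen, and dextran sulfate sodium (DSS), a polymer that injures the colon lining. All libraries labelled WT tumor or WT distal crypt at baseline in the colony that carries the *Mtg16* P209T point mutation were taken, with none left out. Both groups were littermate-matched WT mice of that colony on a C57/BL6 background, at least 8 weeks old when used, and they served in the study as controls for mice homozygous for P209T (T/T). The tumor-bearing mice received AOM at 10 mg/kg and 3 cycles of 3% DSS for 4 days, each followed by 16 days of water, whereas the mice that gave crypts were not treated. Tumors were dissected whole, kept in a stabilizing solution and homogenized. Crypts came from the last 5 cm of colon before the anus, where a chelating agent loosened them, and contain epithelium with little of the tissue beneath it. The contrast therefore differed in tissue kind, carcinogen and injury, age and RNA handling at once, and the sequencing requests also differed (5698 for tumors and 5094 for crypts). The parts of these in any difference below cannot be told apart.

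The colon epithelium renews itself from stem cells at the crypt base, which are kept by Wnt ligands and R-spondins from the mesenchyme, and daughter cells mature into absorptive colonocytes, goblet cells, enteroendocrine cells and tuft cells as they climb. Canonical Wnt signaling stabilizes β-catenin, which binds TCF/LEF factors and turns on target genes, among them a set of secreted and membrane inhibitors that feed back on the pathway. AOM/DSS tumors are known to arise through activating lesions of this pathway in an inflamed mucosa. A dissected tumor holds fibroblasts, muscle, vessels and leukocytes as well as epithelium, so genes were read by the compartment that normally expresses them.

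The 3 tumor libraries held 32231389 to 54455828 reads and the 3 crypt libraries 38008528 to 41826848. Across the 15004 genes tested, log2 levels correlated at 0.975 to 0.983 among tumors, at 0.986 to 0.989 among crypts and at 0.784 to 0.806 between a tumor and a crypt isolate. Each of the 3 WT tumor libraries held more than 50 reads both of *Xist*, which is transcribed in female cells, and of 4 Y-linked genes summed, and none of the 3 crypt libraries did. The 3 T/T tumor libraries shared this and the 4 T/T crypt libraries did not, so all tumor libraries stood apart in this respect and no comparison could be made without them. In WT tumors 1 to 3 the *Xist* reads were 40643, 62 and 1633 and the Y-linked reads 803, 10641 and 4413. WT tumor 2 was thus just over the cut for *Xist*. How many mice gave each tumor library is not given in the sources used here. Values below are normalized reads, scaled so that the bulk of genes matched between libraries, and a gene was called higher or lower at an adjusted p under 0.05 in limma.

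Tumors and crypts differed over most of the transcriptome. Of the 15004 genes, 5103 were called higher in tumors (34%) and 4418 lower (29.4%), and the median difference over all genes was 0.06 on the log2 scale. The groups of 3 did not overlap for 10513 genes (70.1%). Large differences were mostly in one direction, since 2412 genes were at least 4-fold higher in tumors (16.1%) and 506 at least 4-fold lower (3.37%). Most of the large increases were of genes with few reads in crypts. Of the 2412, 376 averaged less than 1 normalized read in crypts, 917 averaged 1 to 10, and 1119 averaged 10 or more. Among the 7108 genes above 1000 normalized reads in crypts, 21 were at least 4-fold higher in tumors, 264 were at least 4-fold lower, and 3334 were called lower in all against 1073 higher. The scaling changed the calls of small differences. With levels scaled to 20 pan-epithelial genes in place of all genes, 7172 genes were called higher and 2043 lower, so that 77.8% of calls were higher in place of 53.6%, and the median over all genes moved to 0.46. Of the 506 genes at least 4-fold lower, 501 remained called lower and 340 remained at least 4-fold lower under that scaling, and all 2412 on the high side remained at least 4-fold higher.

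**Figure D1:**
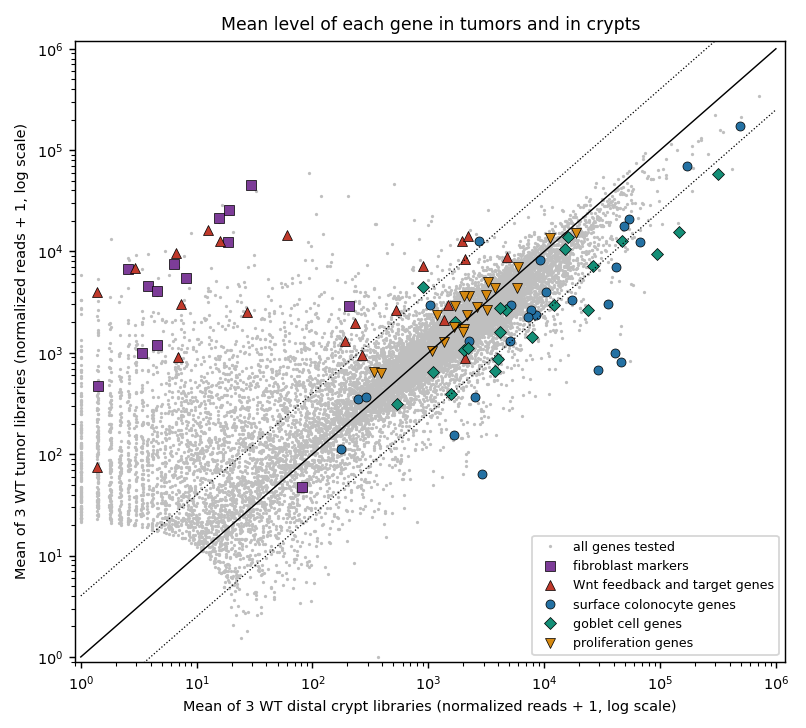
Each point is 1 of the 15004 genes, with its mean normalized reads in the 3 WT distal crypt isolates on the x axis and in the 3 WT tumors on the y axis, both on log10 scales with 1 added. The cloud rises above the diagonal at low crypt levels, where 376 genes with less than 1 read in crypts were at least 4-fold higher in tumors, and bends below it at the highest crypt levels, where 264 genes were at least 4-fold lower.

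The 8 genes given here had the largest increases among those averaging 1000 or more normalized reads. All 8 averaged less than 10 in crypts, so that they passed the filter on low values through the tumors and could only be higher, and their values are given as a description. *Rgs5*, a regulator of G-protein signaling in pericytes, had 3525, 3687 and 2704 normalized reads in the 3 tumors and none in the 3 crypt isolates, at least 2861-fold higher when 3 reads over the crypt group are taken as the floor. *Col12a1*, a fibril-associated collagen, was at 10517, 12964 and 16137 in tumors and 1.20, 0 and 1.23 in crypts, 16252-fold (95% counting interval 4499 to 134203) higher. *Thbs2*, a matricellular protein, was at 4656, 6381 and 6617 against 0 in each crypt isolate, at least 4916-fold higher. In all 3 genes every tumor had 2704 normalized reads or more and the crypts had next to none. *Cxcl14*, a chemokine, was also at 0 in crypts and at least 2827-fold higher. The acute-phase protein gene *Hp* was 13159-fold (95% counting interval 2362 to 519796) higher and the collagen gene *Col5a2* had 7235, 8560.1 and 10263 in tumors and 0, 3.39 and 1.23 in crypts (log2 difference 11.97 ± 0.48 (SE)). *Il1rl1*, the receptor for IL-33, was at 8686, 10438 and 8779 and 4.82, 1.13 and 0 (log2 difference 11.97 ± 0.55 (SE)). *Mgp*, a calcification inhibitor of smooth muscle and cartilage, was at 5543, 9141 and 9836 and 1.20, 1.13 and 2.47 (log2 difference 11.61 ± 0.30 (SE)).

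The largest decreases were chosen by the same rule. *Mptx1*, a mucosal pentraxin, fell from 59891, 51021 and 53172 normalized reads in crypts to 2256, 105 and 128 in tumors (log2 difference -7.44 ± 1.00 (SE), adjusted p = 2.56e-04). *Slc26a3* (chr12:31390871-31473917, GRCm38), the apical chloride-bicarbonate exchanger, was at 37115, 52683 and 48670.1 in crypts and 1817, 188 and 420 in tumors (log2 difference -6.44 ± 0.68 (SE), adjusted p = 6.16e-05). *Aqp8*, a water channel, was at 21873, 29879 and 35726 and 1563, 167 and 281 (log2 difference -6.09 ± 0.70 (SE), adjusted p = 9.99e-05). The highest tumor lay far below the lowest crypt isolate for each of the 3, and tumor 1 held the most in each. *Car4*, a membrane-bound carbonic anhydrase, differed by -5.93 on the log2 scale, *Btnl1*, a butyrophilin-like protein that supports intraepithelial γδ T cells, by -5.39, *Insl5*, a hormone of distal enteroendocrine cells, by -5.16, *Apol10a* by -5.24 and *Tgm3*, a transglutaminase, by -5.13, all with an adjusted p under 0.05.

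Markers of stroma separated the groups by orders of magnitude. All 14 fibroblast markers passed the filter on low values, and 13 were called higher in tumors, each by more than 4-fold, with a median log2 difference of 9.64 against 0.06 over all genes. Their summed level was 318 to 496 normalized reads in crypts and 121121 to 168485 in tumors, and 8 of the 14 averaged less than 10 in crypts, so that they passed the filter through the tumors and could only be higher. For such members, here and in the lists below, the counts, medians and p-values are a description of the libraries and no support. *Col1a1*, the main fibrillar collagen of stroma, was at 13.2, 22.6 and 18.5 in crypts and 19249, 22002 and 36519.7 in tumors (log2 difference 10.38 ± 0.27 (SE), adjusted p = 7.52e-08). *Col3a1* was at 10.8, 36.1 and 38.3 and 40347, 41519 and 54080.5, and *Col6a3* at 1.20, 2.26 and 1.23 and 5159.5, 4739 and 10194. *Col5a1* was at 0, 11.3 and 4.94 in crypts and 6290, 6209 and 9927 in tumors. No crypt isolate approached a tumor for any of these collagens. The exception in the list was *Fap*, a serine protease of activated fibroblasts (named after its values were seen), at 75.9, 66.6 and 98.7 in crypts and 63.7, 32.9 and 42.6 in tumors (log2 difference -0.81 ± 0.32 (SE), adjusted p = 0.051), which was called lower without tumor 1. In tissue homogenates of this kind fewer cells of a type and less RNA per cell cannot be told apart.

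Muscle, pericyte and endothelial markers followed. All 10 smooth muscle and pericyte markers were called higher by at least 4-fold (median 7.79), 6 of which averaged less than 10 in crypts and passed the filter through the tumors, with sums of 109 to 119.7 in crypts and 17183 to 29140.4 in tumors. *Acta2*, smooth muscle actin, was at 49.4, 64.4 and 44.4 in crypts and 5619, 3987 and 5088 in tumors (log2 difference 6.51 ± 0.19 (SE), adjusted p = 1.28e-07). *Myh11*, smooth muscle myosin, differed by 8.93 and *Tagln*, an actin-binding protein, by 8.28 on the log2 scale, without overlap of the groups. All 10 endothelial markers were likewise called higher by at least 4-fold (median 7.84, sums 494 to 606 against 13324 to 17671), and 7 of them passed the filter through the tumors in the same way. *Pecam1*, the platelet endothelial adhesion molecule, was at 32.5, 38.4 and 65.4 in crypts and 2198, 2351 and 2814 in tumors (log2 difference 5.78 ± 0.26 (SE), adjusted p = 6.68e-07). *Cdh5*, the adherens junction cadherin of vessels, was at 0, 3.39 and 1.23 and 1612, 1938 and 2305, *Eng*, a TGF-β coreceptor, differed by 9.27 on the log2 scale, and *Kdr*, the main VEGF receptor, was 1392-fold (95% counting interval 385 to 11496) higher.

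**Figure D2:**
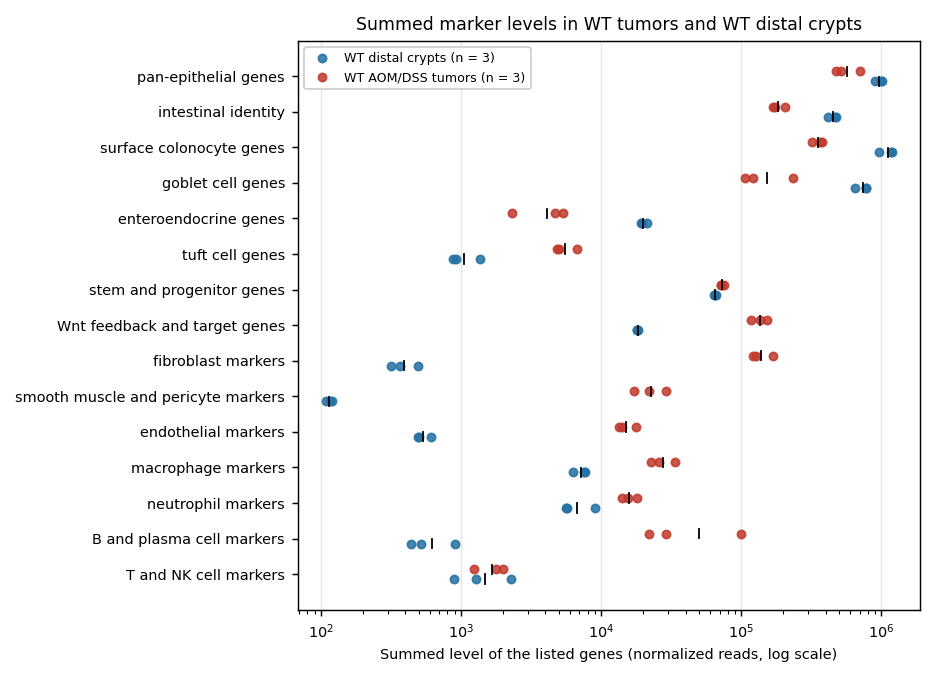
Summed normalized reads of each cell type marker list (log10 x axis) in the 3 WT tumors and the 3 WT crypt isolates, 1 point a library, with a vertical bar at each mean. Fibroblast markers sum to 318 to 496 in crypts and 121121 to 168485 in tumors, whereas the sums of T and NK cell markers overlap and the pan-epithelial sums differ in the opposite direction, 894358 to 1016590 in crypts and 475094 to 704559 in tumors.

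Leukocyte markers differed by lineage. Of 12 macrophage markers 11 were called higher in tumors and 1 lower (median 4.41), and 1 averaged less than 10 in crypts. *Csf1r*, the receptor on which macrophages depend, was at 93.9, 104 and 86.4 in crypts and 3105, 2778 and 2353 in tumors (log2 difference 4.84 ± 0.15 (SE), adjusted p = 1.67e-07), and *Lyz2*, myeloid lysozyme, at 122, 186 and 134 and 13182, 8671 and 6490.4 (log2 difference 5.95 ± 0.26 (SE), adjusted p = 6.12e-07). The tumors held more of both than any crypt isolate. *Adgre1*, which encodes F4/80, differed by 5.03 and *Fcgr1*, a high-affinity Fc receptor, by 5.39. The 1 lower macrophage marker was *Cd14*, the endotoxin coreceptor (named after its values were seen and not called under the pan-epithelial scaling), at 6699, 6477 and 5429 in crypts and 4738, 3815 and 4122 in tumors (log2 difference -0.55 ± 0.12 (SE), adjusted p = 0.00346).

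Of 9 neutrophil markers 8 were called higher and 1 lower (median 7.78), and 5 averaged less than 10 in crypts. The calgranulin gene *S100a8* was at 37.3, 47.4 and 29.6 in crypts and 2174, 3574 and 2304 in tumors (log2 difference 6.09 ± 0.25 (SE), adjusted p = 4.47e-07) and its partner *S100a9* at 8.43, 4.52 and 7.4 and 2686, 3460.4 and 3845 (log2 difference 8.76 ± 0.26 (SE), adjusted p = 1.34e-07). *Il1b*, the inflammasome-processed cytokine, was at 16.9, 16.9 and 6.17 and 3681, 4055 and 3381 (log2 difference 8.13 ± 0.35 (SE), adjusted p = 5.59e-07), and *Trem1*, an amplifying receptor of myeloid cells, was 1118-fold (95% counting interval 200.3 to 44173) higher. All tumors exceeded all crypt isolates for these 4 genes. *Ly6g*, listed as a neutrophil marker (named after its values were seen), went the other way, at 5649, 8897 and 5516 in crypts and 2515, 3659 and 3111 in tumors (log2 difference -1.09 ± 0.21 (SE), adjusted p = 0.00176). In crypts *Ly6g* held nearly all of the list's sum of 5574 to 8993 normalized reads, where *S100a8* and *S100a9* were low. Of 7 mast cell markers, 4 of which averaged less than 10 in crypts, 6 were higher and 1 lower (*Kit*, the receptor for stem cell factor, also made by other cells and named after its values were seen, -1.30 on the log2 scale), with the protease genes *Cpa3* at 3.97, *Tpsb2* at 4.66 and *Mcpt4* at 4.19 on the log2 scale, and *Fcer1a*, the IgE receptor chain, 78.7-fold (95% counting interval 13.8 to 3135) higher. The summed mast cell level overlapped between the groups (2183 to 2765 in crypts and 2626 to 4029 in tumors).

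T and NK cell markers did not move together. Of 10 tested, 3 were called higher, 1 lower and 6 were not called (median 0.02) beside 34% of all genes called higher and 29.4% lower. There were 5 higher when levels were scaled to the pan-epithelial genes or library totals, and the summed levels overlapped at 888 to 2262 in crypts and 1244 to 1994 in tumors. *Cd3d*, a chain of the T cell receptor complex, was at 63.8, 48.6 and 98.7 in crypts and 64.5, 71.1 and 41.4 in tumors (log2 difference -0.23 ± 0.34 (SE), adjusted p = 0.589). The groups overlapped for *Cd3d*. *Cd8a*, the coreceptor of cytotoxic and most intraepithelial T cells, was lower in tumors at 73.9, 70.5 and 51.8 against 172, 281 and 485 (log2 difference -2.13 ± 0.37 (SE), adjusted p = 0.00107). *Cd4*, the helper coreceptor also found on macrophages, was at 639, 287 and 276 against 12.0, 18.1 and 30.8 (log2 difference 4.22 ± 0.43 (SE), adjusted p = 5.01e-05), and *Foxp3*, the factor of regulatory T cells, at 96.7, 127 and 76.0 against 0, 6.78 and 3.70 (log2 difference 4.89 ± 0.71 (SE), adjusted p = 3.98e-04). Neither group overlapped the other for *Cd8a*, *Cd4* or *Foxp3*. *Foxp3* averaged less than 10 in crypts, so it passed the filter through the tumors and could only be higher.

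The summed level of B and plasma cell markers was higher in every tumor (21906 to 98728) than in any crypt isolate (436 to 908), but by unequal amounts. Of 8 tested 6 were called higher and 2 were not called (median 4.17), and 1 averaged less than 10 in crypts. *Jchain*, the joining chain of secreted IgA and IgM, was at 395, 323 and 791 in crypts and 92452, 20589 and 26408 in tumors (log2 difference 6.31 ± 0.55 (SE), adjusted p = 2.05e-05), with tumor 1 far above the other 2. *Mzb1*, an endoplasmic reticulum protein of plasma cells, was at 2027, 484 and 947 in tumors and 14.5, 12.4 and 21 in crypts, and *Pou2af1*, a B cell coactivator, differed by 5.82 on the log2 scale.

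Epithelial genes remained abundant in the tumor libraries at a modestly lower level. Of 20 pan-epithelial genes, which are expressed throughout the crypt, 15 were called lower in tumors, 2 higher and 3 were not called, with a median log2 difference of -0.67. Under scaling to these genes themselves 9 were lower, and the higher calls were 3 without tumor 1 and 1 in the fits without any other library. *Epcam*, the epithelial cell adhesion molecule, was at 90879, 95792 and 100427 in crypts and 62504, 57382 and 70114 in tumors, 1.51-fold lower (log2 difference -0.60 ± 0.14 (SE), adjusted p = 0.00546), a call that was lost when levels were scaled to the pan-epithelial genes themselves (-0.19, adjusted p = 0.169) or to library totals (-0.23, adjusted p = 0.129). The summed level of the list was 1.71-fold lower in tumors. The offset used for the pan-epithelial scaling was the list's mean log2 difference of -0.40, which *Cldn4*, at 4.21, puts above the median. *Krt8*, a keratin of simple epithelia, differed by -1.12 and *Prss8*, a membrane-anchored protease that activates sodium channels, by -1.37 on the log2 scale. *Cldn4*, a tight junction claudin, departed from the list and rose from 1185, 1137 and 858 in crypts to 14718, 22281 and 22617 in tumors (log2 difference 4.21 ± 0.19 (SE), adjusted p = 6.83e-07). The lowest tumor stood far above the highest crypt isolate for *Cldn4*.

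Regulators and markers of intestinal identity were mostly lower. Of 15 tested, 13 were called lower and 2 higher, or 1 in 4 of the 6 fits that left out a library (median -1.35), and 10 remained lower with levels scaled to the pan-epithelial genes. The largest decreases were of transcription factors. The caudal homeobox gene *Cdx2*, which specifies intestine, was at 4383, 3482 and 4030 in crypts and 686, 688 and 658 in tumors (log2 difference -2.54 ± 0.11 (SE), adjusted p = 5.51e-07), and its relative *Cdx1* at 22307, 20997 and 21928 and 5117, 4241 and 6411 (log2 difference -2.07 ± 0.14 (SE), adjusted p = 6.29e-06). *Hnf4g*, a nuclear receptor of enterocytes, was at 1207, 1308 and 1438 and 332, 222 and 288 (log2 difference -2.24 ± 0.17 (SE), adjusted p = 9.59e-06). The 3 tumors lay close together for *Cdx2* and below every crypt isolate for all 3 genes.

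**Figure D3:**
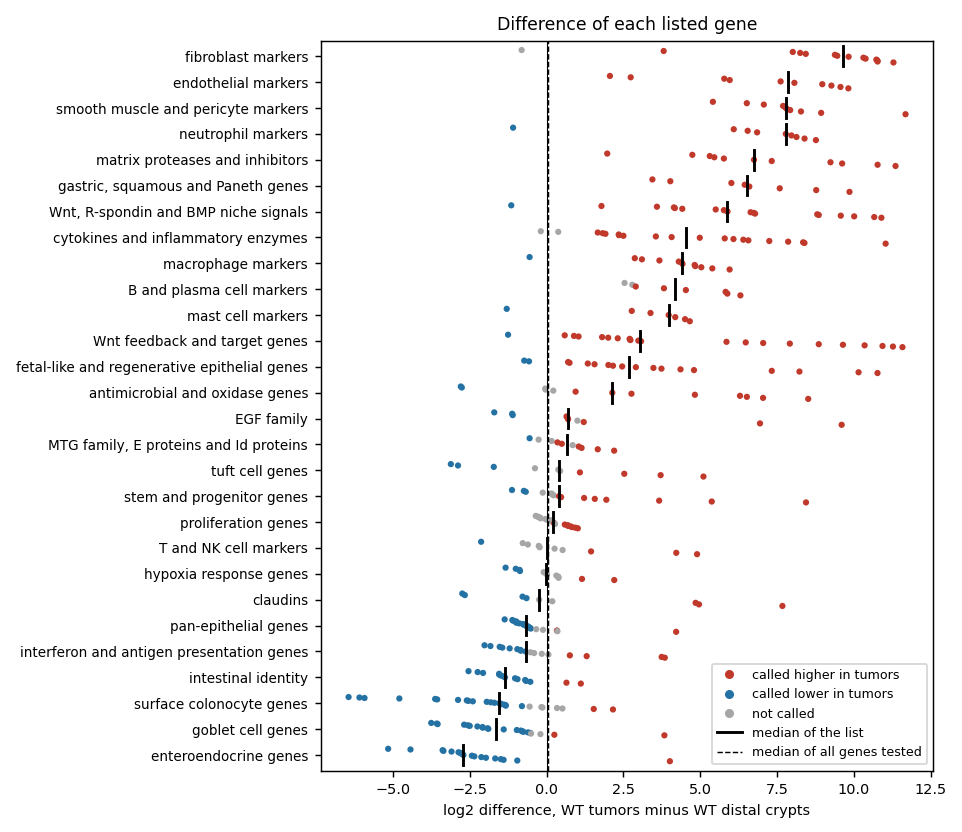
Log2 difference (WT tumors minus WT distal crypts) of each tested gene, 1 point a gene, by gene list, for lists with at least 5 tested genes, red where called higher, blue where called lower and gray where not called, with a black bar at each list's median. Stromal, niche and protease lists lie almost wholly to the right of the dashed line at 0.06, the median of all 15004 genes, and the enteroendocrine (median -2.71), goblet (-1.65) and colonocyte (-1.55) lists to its left.

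Wnt feedback and target genes were higher in tumors almost throughout. Of 22 tested, 21 were called higher, 17 of them by at least 4-fold, and 1 was lower (median 3.03), and 6 averaged less than 10 in crypts. Their summed level was 18048 to 18416 in crypts and 116961 to 153486 in tumors, and 21 were also called higher with levels scaled to the pan-epithelial genes and without tumor 1. *Axin2* (chr11:108920349-108950783, GRCm38), a scaffold of the β-catenin destruction complex and a general target of the pathway, was at 2359, 1704 and 1800.3 in crypts and 10037, 14379 and 14051 in tumors, a 6.56-fold difference (log2 difference 2.71 ± 0.17 (SE), adjusted p = 3.73e-06). *Notum* (chr11:120653788-120661175), a secreted enzyme that removes the lipid from Wnt ligands, was at 1.20, 3.39 and 1.23 in crypts and 5604, 7739 and 7473 in tumors (log2 difference 11.27 ± 0.31 (SE), adjusted p = 9.89e-08). *Dkk2*, a secreted antagonist of the LRP coreceptors, was at 3556, 5078 and 3369 in tumors and 0, 1.13 and 0 in crypts, 10466-fold (95% counting interval 1878 to 413426) higher. *Apcdd1*, a membrane inhibitor of Wnt ligands, was at 4406, 12974 and 11594 and 7.23, 0 and 9.87 (log2 difference 10.93 ± 0.85 (SE), adjusted p = 1.11e-05). For these last 3 every tumor had 3369 normalized reads or more and no crypt isolate above 9.87, while *Axin2* was already present in normal crypts. Stromal cells also express some of these inhibitors, and fibroblast markers moved with the list, a part that was not tested.

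Other members, named after their values were seen, show the range of the list. The intracellular inhibitor *Nkd1* was at 12.0, 10.2 and 12.3 in crypts and 13473, 19195 and 16593 in tumors (log2 difference 10.35 ± 0.17 (SE), adjusted p = 3.42e-08), and *Wif1*, which binds Wnt ligands outside the cell, at 14.5, 16.9 and 13.6 and 11573, 15142 and 11738 (log2 difference 9.64 ± 0.16 (SE), adjusted p = 3.42e-08). *Lef1*, a TCF/LEF factor that is itself a target, was at 4.82, 6.78 and 6.17 and 934, 975 and 819 (log2 difference 7.05 ± 0.23 (SE), adjusted p = 1.90e-07). None of these overlapped between the groups. The ubiquitin ligases *Rnf43* and *Znrf3*, which clear Wnt receptors from the surface, differed by 2.00 and 2.31 on the log2 scale, and the growth regulators *Myc* and *Ccnd1* by 1.04 and 0.89. *Tcf7l1*, a mostly repressive TCF, was the member that was lower (log2 difference -1.25 ± 0.15 (SE), adjusted p = 1.38e-04).

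**Figure D4:**
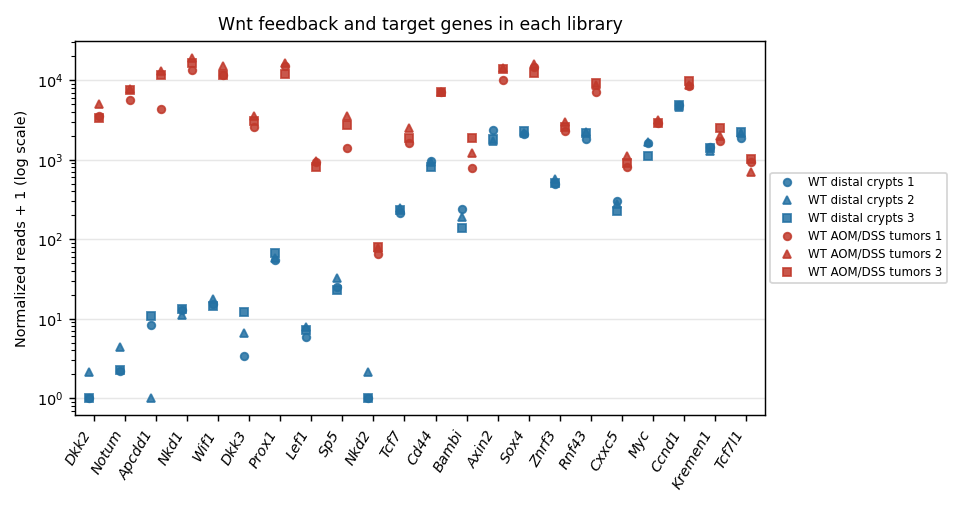
Normalized reads (log10 scale, 1 added) of the 22 tested Wnt feedback and target genes in each of the 3 WT tumors and 3 WT distal crypt isolates, 1 point a library. For 21 genes the tumors lie above the crypts, from *Kremen1* with a log2 difference of 0.59 to *Dkk2*, at 3369 or more in tumors and 1.13 or less in crypts.

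The 250 bases before the annotated start of these genes were searched for the 7 letters CTTTGAT or CTTTGAA, forms of the core TCF/LEF motif that do not overlap each other, on both strands. Of the 17 members at least 4-fold higher, 12 matched the RefSeq table of GRCm38.p6 and 1 held the letters (8.33%), against 134 of 1745 (7.68%) of all genes at least 4-fold higher, 792 of 11794 tested genes (6.72%) and 2333 of 27025 genes in the table (8.63%). The member was *Sp5*, a zinc finger factor at 24.1, 31.6 and 22.2 normalized reads in crypts and 1395, 3509.8 and 2748 in tumors (log2 difference 6.48 ± 0.33 (SE), adjusted p = 1.30e-06). Its upstream stretch, chr2:70474673-70474922 on the plus strand, is shown because it is the one that holds the letters, in capitals, 97 bases before the start.
Sp5: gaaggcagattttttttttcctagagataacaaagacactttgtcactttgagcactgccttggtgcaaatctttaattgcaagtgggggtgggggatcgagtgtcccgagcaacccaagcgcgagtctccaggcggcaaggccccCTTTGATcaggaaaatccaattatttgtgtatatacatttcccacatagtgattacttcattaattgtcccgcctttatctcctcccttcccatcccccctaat

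Ligands and antagonists that reach crypts from the niche were measured at very low level in crypt isolates. Of 19 tested Wnt, R-spondin and BMP signals, 17 averaged less than 10 normalized reads in crypts and passed the filter through the tumors, which largely fixed their direction. Of the 19, 18 were called higher in tumors and 1 lower (median 5.89). *Grem1*, a BMP antagonist of the pericryptal mesenchyme, was at 2.41, 2.26 and 0 in crypts and 5367, 4293 and 3313 in tumors (log2 difference 10.89 ± 0.47 (SE), adjusted p = 5.76e-07). *Wnt5a*, a noncanonical ligand, was 5412-fold (95% counting interval 971 to 213775) higher and *Bmp4*, a mesenchymal BMP, 2164-fold (95% counting interval 599 to 17869) higher. The stromal marker sums above moved with these genes, and their part in the differences was not tested. *Wnt10a*, another ligand, had no reads in these crypt isolates and 747, 1388 and 1343 normalized reads in tumors, at least 972-fold higher. *Bmp2*, which colonic epithelium itself makes toward the surface (named after its values were seen), was lower, at 1753, 1666 and 1476 against 2959.9, 4443 and 3589.5 (log2 difference -1.15 ± 0.15 (SE), adjusted p = 2.19e-04).

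Stem and progenitor genes did not rise as a block. Of 15 tested, 8 were called higher, 3 lower and 4 not called (median 0.40), beside 34% of all genes higher and 29.4% lower. Under the pan-epithelial scaling 11 were higher and 1 lower. Of the 15, 2 averaged less than 10 in crypts. *Lgr5*, the R-spondin receptor that marks cycling crypt base stem cells and a Wnt target, was at 452, 283 and 289 in crypts and 3667, 5581 and 3695 in tumors, 12.6-fold higher (log2 difference 3.66 ± 0.23 (SE), adjusted p = 3.22e-06). *Tnfrsf19*, a Wnt-responsive receptor also made by stroma, was at 3.61, 9.04 and 3.70 and 1946, 2709 and 1726 (log2 difference 8.44 ± 0.35 (SE), adjusted p = 4.72e-07), and *Msi1*, an RNA-binding protein of progenitors, at 6.02, 6.78 and 6.17 and 254, 376 and 289 (log2 difference 5.37 ± 0.27 (SE), adjusted p = 1.19e-06). The groups did not overlap for these 3. *Tnfrsf19* and *Msi1* averaged less than 10 in crypts, so they passed the filter through the tumors and could only be higher. The 3 lower members, named after their values were seen, were *Lrig1*, a feedback inhibitor of ErbB receptors (log2 difference -1.13 ± 0.10 (SE), adjusted p = 2.10e-05), *Rgmb*, a BMP coreceptor (log2 difference -0.68 ± 0.12 (SE), adjusted p = 0.00115), and *Myb*, a transcription factor of progenitors (log2 difference -0.74 ± 0.11 (SE), adjusted p = 4.63e-04).

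Proliferation genes had overlapping sums. Of 21 tested, 8 were called higher, close to the share among all genes (34%), none lower and 13 were not called by limma (median 0.22), and the summed level overlapped at 58730.3 to 94102 in crypts and 80408 to 83253 in tumors. *Mki67*, the nuclear antigen of cycling cells, was at 24535, 19638 and 12701 in crypts and 16452, 13956 and 15683 in tumors (log2 difference -0.26 ± 0.22 (SE), adjusted p = 0.334), with tumors inside the range of crypts. Crypt isolate 3 had the least *Mki67*, and without it 5 members were called lower, *Mki67* among them (-0.53, adjusted p = 0.0139). Among the called members, *Rrm2*, the ribonucleotide reductase subunit, differed by 1.02, *Ccne1*, cyclin E, by 0.93, and *Mcm3*, a subunit of the replicative helicase, by 0.83 on the log2 scale. With levels scaled to the pan-epithelial genes 11 members were called higher.

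Genes of mature colonocytes were lower in tumors. Of 27 surface colonocyte genes 20 were called lower, 10 of them by at least 4-fold, 2 were higher and 5 were not called (median -1.55), and 20 were called lower and 4 higher with levels scaled to the pan-epithelial genes. *Car1*, a cytosolic carbonic anhydrase of the colon, was at 6446, 7518 and 11559.5 in crypts and 2227, 2364 and 2441 in tumors (log2 difference -1.81 ± 0.19 (SE), adjusted p = 6.40e-05). *Car4* was at 29196, 46251 and 47643 and 2250, 259 and 489 (log2 difference -5.93 ± 0.67 (SE), adjusted p = 9.12e-05). *Slc26a3* and *Aqp8*, above, were the other 2 largest decreases of the list. The channel genes *Scnn1b* and *Scnn1g* were among the members not called, at log2 differences of 0.51 (adjusted p = 0.111) and -0.55 (adjusted p = 0.394), and *Emp1*, a membrane protein of squamous and injured epithelium, was higher at 2.16 (these 3 were named after their values were seen).

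Of 22 goblet cell genes 18 were called lower, 9 by at least 4-fold, and 2 higher (median -1.65). With levels scaled to the pan-epithelial genes 14 remained lower. *Zg16*, a lectin of mucus, was at 92570.1, 89912 and 100008 in crypts and 20144, 3232 and 5201 in tumors (log2 difference -3.75 ± 0.56 (SE), adjusted p = 4.75e-04), and *Klk1*, tissue kallikrein, at 22257, 22796 and 27223 and 5336, 877 and 1745 (log2 difference -3.57 ± 0.54 (SE), adjusted p = 5.02e-04). In both, tumor 1 held several times the level of the other 2 tumors and still lay below all crypts. *Ang4*, an antimicrobial ribonuclease of goblet and Paneth cells, ran against the list with 4594, 5973 and 2910.3 normalized reads in tumors and 2170, 23.7 and 515 in crypts (log2 difference 3.83 ± 1.35 (SE), adjusted p = 0.0355). The call was lost in the fit without a filter on low values (adjusted p = 0.0551) and without tumor 1, tumor 2, tumor 3 or crypt isolate 3 (log2 differences of 3.59 to 4.21, adjusted p = 0.0553 to 0.0934). On the log2 scale edgeR put the difference at 2.33 (adjusted p = 0.0767) and DESeq2 at 2.32 (adjusted p = 0.122), and without crypt isolate 2 limma put it at 2.00 (adjusted p = 0.0171). In the 6 fits that each left out 1 library, 0 or 1 member was called higher. *Atoh1*, the factor that commits cells to the secretory lineages (named after its values were seen), was lower, with a difference of -2.25 on the log2 scale.

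Enteroendocrine genes had the lowest median of the epithelial lists. Of 19 tested 18 were called lower, 13 by at least 4-fold, and 1 higher (median -2.71), and 16 were lower with levels scaled to the pan-epithelial genes and also without tumor 1. *Chga*, chromogranin A of secretory granules, was at 2308, 2887 and 2534 in crypts and 649, 212 and 398 in tumors (log2 difference -2.75 ± 0.35 (SE), adjusted p = 1.69e-04). *Gcg*, which encodes glucagon-like peptides, was at 1740.1, 1971 and 2728 and 358, 23.7 and 105 (log2 difference -4.43 ± 0.80 (SE), adjusted p = 0.00142), and *Insl5* at 3137, 2999 and 3260.1 and 369, 21.7 and 79.4 (log2 difference -5.16 ± 0.82 (SE), adjusted p = 6.91e-04). Tumor 2 had the least of each of the 3 and tumor 1 the most. *Isl1*, an enteroendocrine transcription factor that is also made by mesenchyme, was the member that was higher (log2 difference 4.01 ± 0.33 (SE), adjusted p = 1.57e-05).

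Of 10 tuft cell genes 4 were called higher, 3 lower and 3 not called (median 0.41), shares close to those of all genes (34% and 29.4%), while the summed level was 879.8 to 1361 in crypts and 4838 to 6748 in tumors. *Dclk1*, a kinase that marks tuft cells, was at 399.8, 238 and 236 in crypts and 362, 191 and 147 in tumors (log2 difference -0.38 ± 0.35 (SE), adjusted p = 0.376), and the groups overlapped. Without tumor 1 the *Dclk1* difference was -0.75 (adjusted p = 0.0493). *Ptgs1*, cyclooxygenase 1, was higher at 893, 1021 and 989.7 against 32.5, 23.7 and 25.9 (log2 difference 5.10 ± 0.20 (SE), adjusted p = 3.40e-07), as was *Avil*, an actin-binding protein, at 3068, 2981 and 4976 against 375, 247 and 217 (log2 difference 3.71 ± 0.25 (SE), adjusted p = 5.54e-06). *Rgs13*, a regulator of G-protein signaling, was lower (log2 difference -3.12 ± 0.40 (SE), adjusted p = 1.82e-04), and so were *Trpm5*, the cation channel of taste transduction (-2.88 on the log2 scale), and *Pou2f3*, the master factor of the lineage (-1.72), both named after their values were seen. Fibroblasts and leukocytes also express *Ptgs1*, and the marker sums above moved with it.

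Genes of fetal-like and regenerating epithelium were mostly higher. Of 18 tested 16 were called higher, 12 by at least 4-fold, and 2 lower (median 2.68), and 3 averaged less than 10 in crypts. *Clu*, a chaperone of damage-induced revival stem cells, was at 24.1, 39.5 and 27.1 in crypts and 10517, 9522 and 7672 in tumors (log2 difference 8.23 ± 0.21 (SE), adjusted p = 7.52e-08). *Spp1*, osteopontin, was 4209.7-fold (95% counting interval 755 to 166303) higher and *Ccn2*, a matricellular target of YAP, 5649-fold (95% counting interval 1014 to 223155) higher. Stroma and macrophages also make these genes. *Ly6a*, which encodes Sca-1, a marker of regenerating crypts, was lower instead, at 24642, 21609 and 25219 against 40657, 43797 and 34282 (log2 difference -0.73 ± 0.13 (SE), adjusted p = 0.00126), with no overlap of the groups, and -0.32 (adjusted p = 0.0994) with levels scaled to the pan-epithelial genes.

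Members of the EGF family, whose ligands drive growth of crypt epithelium, were called in both directions. Of 10 tested 6 were called higher, 5 ligands and the receptor *Egfr*, and 3 were lower, the ligand *Egf* and the receptors *Erbb2* and *Erbb3*. Among all genes 34% were called higher and 29.4% lower, the latter close to the share in this list. Only *Nrg1*, below, averaged less than 10 in crypts, so it passed the filter through the tumors and could only be higher. *Areg*, amphiregulin, was at 731, 503 and 322 in crypts and 919, 1283 and 1242 in tumors (log2 difference 1.21 ± 0.28 (SE), adjusted p = 0.00546). *Ereg*, epiregulin, was at 15.7, 12.4 and 14.8 and 2472, 2389 and 1112 (log2 difference 6.94 ± 0.32 (SE), adjusted p = 7.37e-07), and *Nrg1*, a stromal ligand of ERBB3, was 1265-fold (95% counting interval 433 to 6138) higher. *Egf* itself was lower (log2 difference -1.70 ± 0.25 (SE), adjusted p = 4.25e-04). The receptor genes, named after their values were seen, differed by -1.10 for *Erbb2*, -1.12 for *Erbb3* and 0.70 for *Egfr* on the log2 scale.

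Matrix proteases and their inhibitors were higher without exception among the 11 tested (median 6.75), of which 5 averaged less than 10 in crypts. *Mmp7*, matrilysin, was at 27.7, 11.3 and 19.7 in crypts and 13518, 19861 and 13162 in tumors (log2 difference 9.62 ± 0.31 (SE), adjusted p = 1.67e-07). *Mmp13*, a collagenase, was at 7.23, 10.2 and 6.17 and 13532, 18578 and 13916 (log2 difference 10.77 ± 0.21 (SE), adjusted p = 3.65e-08). The stromelysins *Mmp10* and *Mmp3* had no reads in the crypt isolates and 8961, 11794 and 9013 and 1463, 2224 and 2339.5 normalized reads in tumors, at least 8546-fold and 1673-fold higher. All 4 were thus close to or at 0 in crypts and present in every tumor.

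Of 20 cytokines and inflammatory enzymes 18 were called higher and 2 not called by limma (median 4.53), and 9 averaged less than 10 in crypts. *Il1a*, an alarmin, was at 0, 1.13 and 4.94 in crypts and 929, 1067 and 437 in tumors (log2 difference 8.35 ± 0.64 (SE), adjusted p = 1.04e-05). *Ptgs2*, the inducible cyclooxygenase, was 3219.6-fold (95% counting interval 1101 to 15614) higher, and *Il11*, a cytokine of the IL-6 family, was at 2339.6, 2339 and 1336 in tumors against 8.43, 3.39 and 3.70 in crypts (log2 difference 8.39 ± 0.37 (SE), adjusted p = 5.92e-07). The 2 not called, named after their values were seen, were *Nos2*, the inducible nitric oxide synthase (0.38, adjusted p = 0.147), and *Ccl20*, a chemokine of the epithelium (-0.19, adjusted p = 0.77).

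Of 13 antimicrobial and oxidase genes 8 were called higher, 2 lower and 3 not called, beside 34% of all genes higher and 29.4% lower. Of the 13, 1 averaged less than 10 in crypts. The summed level was still lower in tumors (148482 to 179564) than in crypts (437731 to 481215). *Lyz1*, Paneth cell lysozyme, was at 28.9, 230.4 and 95 in crypts and 18134, 54862 and 32468 in tumors (log2 difference 8.51 ± 0.68 (SE), adjusted p = 1.33e-05), *Saa3*, serum amyloid A3, differed by 6.52 on the log2 scale, and *Chil3*, a macrophage chitinase-like protein, was 472-fold (95% counting interval 84.5 to 18678) higher. *Lyz1* and *Lyz2* are close copies, and reads may have been divided between them. The inducible lectin gene *Reg3b* ranged widely in both groups, at 4415, 4093 and 696 in crypts and 2159.6, 2690.5 and 3403 in tumors (log2 difference 0.22 ± 0.63 (SE), adjusted p = 0.78), and without crypt isolate 3 its difference was -0.66 (adjusted p = 0.019), whereas against the crypts of the null-allele colony it was 2.65 (adjusted p = 0.0351) and edgeR put it at -0.15. *Pigr*, the receptor that carries IgA across the epithelium, and *Nox1*, the colonic NADPH oxidase, were the 2 lower members at -2.76 and -2.79 (named after their values were seen).

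Interferon and antigen presentation genes were more often lower than higher. Of 17 tested 9 were called lower, 4 higher and 4 not called (median -0.69), beside 29.4% of all genes called lower and 34% higher. *H2-Aa*, a chain of MHC class II, was at 22978, 31439.9 and 35268 in crypts and 9643, 8565 and 4626 in tumors (log2 difference -2.02 ± 0.28 (SE), adjusted p = 2.78e-04). The interferon-induced chemokines *Cxcl9* and *Cxcl10* rose instead, by 3.74 and 3.84 on the log2 scale. With levels scaled to the pan-epithelial genes 7 members were lower and 5 higher, and without crypt isolate 3 the 4 higher calls fell to 2.

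Of 12 hypoxia response genes 2 were called higher, 4 lower and 6 not called, against 34% of all genes called higher and 29.4% lower, and 6 were called higher with levels scaled to the pan-epithelial genes. *Slc2a1*, the glucose transporter, was at 6078, 7323 and 6395 in crypts and 5805, 6495 and 7129 in tumors (log2 difference -0.03 ± 0.11 (SE), adjusted p = 0.843), a difference that turned to 0.38 (adjusted p = 0.0179) under the pan-epithelial scaling and 0.34 (adjusted p = 0.0194) when levels were scaled to library totals. *Pfkfb3*, a regulator of glycolysis, and *Adm*, adrenomedullin, were higher at 2.20 and 1.15, and *Pdk1*, which shuts pyruvate out of mitochondria, was lower at -1.33. Of 9 claudins 3 were higher, close to the 34% of all genes, and 4 lower, or 2 lower under the pan-epithelial scaling. The 3 higher members averaged less than 10 in crypts and passed the filter through the tumors. The tight junction gene *Cldn1* was 49.9-fold (95% counting interval 16.9 to 244) higher, *Cldn5*, the claudin of vessels, 669-fold (95% counting interval 119.8 to 26449) higher, and *Cldn6*, a claudin of embryonic epithelium, at least 40.5-fold higher. Of 4 red blood cell genes 1 was called higher, *Hbb-bt* (log2 difference 2.60 ± 0.75 (SE), adjusted p = 0.0148), a call lost without tumor 3 (2.29, adjusted p = 0.0601), whereas all 4 were called without crypt isolate 3, with summed levels of 32.5 to 777 in crypts and 667 to 1863 in tumors.

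A further 1989 genes were listed in the tumor table and not in the crypt table, which holds genes with at least 2 reads over its libraries. Of these, 329 averaged 10 or more normalized reads in the WT tumors and 92 averaged 100 or more. For 259 of the 1989 the same crypt libraries could be read from another table. None had more than 1 read there, which the listing rule had fixed in advance. By normalized reads, not per length, the highest included *Mmp10*, *Krt5*, *Defa24*, *Defa3*, *Mmp3*, *Col6a4* and *Defa36*. *Col6a4*, a collagen VI chain, had 1781, 1661 and 1710 normalized reads in tumors and none in crypts, at least 1444-fold higher. The α-defensins are peptides of Paneth cells, which the normal mouse colon lacks. *Defa24* was at 1627, 3914 and 3724 in the 3 tumors, *Defa3* at 1073, 2891 and 2674 and *Defa36* at 586, 2836 and 1605. All 3 were lowest in tumor 1. They belong to a family of near-identical copies, of which 18 members averaged 10 or more, so their reads cannot be assigned to single genes with certainty.

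Genes foreign to the normal distal colon were also found in the list of gastric, squamous and Paneth genes. All 8 tested members were called higher (median 6.52, or 7.08 with members at 0 crypt reads set at their lower bound), although 4 averaged less than 10 in crypts and passed the filter through the tumors. *Krt6a*, a keratin of stressed squamous epithelium, was at 0 in each crypt isolate and 784, 137 and 7330.4 in tumors, at least 1743-fold higher. *Krt14*, the basal squamous keratin, was at 21.7, 12.4 and 7.4 in crypts and 1292, 1074 and 13037 in tumors (log2 difference 7.59 ± 0.87 (SE), adjusted p = 1.02e-04), and *Krt5*, its partner, at 643, 12.5 and 9123 in tumors, at least 2017-fold higher. Tumor 3 accounted for most of the reads of all 3 keratins, and tumor 2 for almost none of *Krt5*. *Muc6*, a gastric gland mucin, was 1076-fold (95% counting interval 298 to 8888) higher with 348, 1201 and 979 normalized reads in tumors, the most in tumor 2.

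The 3 tumors thus differed among themselves. Tumor 1 had 3.89 times the summed B and plasma cell level of the mean of the other 2, 2.03 times the goblet cell level and 1.52 times the enteroendocrine level. The summed gastric, squamous and Paneth level was 4754 in tumor 1, 4496 in tumor 2 and 29331 in tumor 3. The pan-epithelial sum of tumor 1 was 0.778 of the mean of the others. Tumor 1 also had the highest levels of *Slc26a3* and *Zg16* given above. Tumor 3 had the highest *Krt6a* and *Krt14*. Further squamous genes of the list, named after their values were seen, also had their highest level in tumor 3 and their lowest in tumor 2. *Krt13*, a suprabasal keratin, was at 1457, 1374 and 5732 in the tumors and *Psca*, a surface antigen of stratified and gastric epithelium, at 25.2, 10.5 and 889.5. Leaving out tumor 1 gave 18 goblet cell genes called lower and none higher, 20 colonocyte genes lower and 21 Wnt genes higher.

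**Figure D5:**
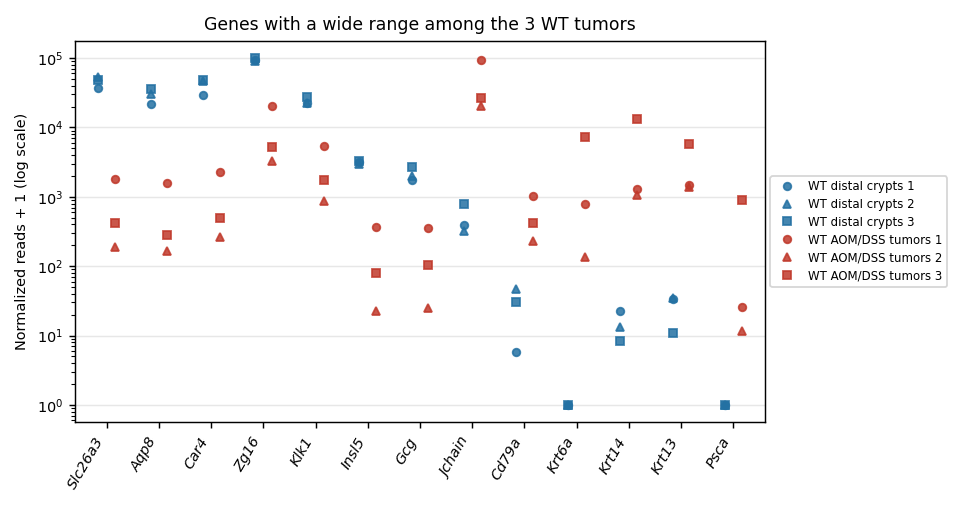
Normalized reads (log10 scale, 1 added) in each WT tumor, numbered 1 to 3, and in the WT crypt isolates for 13 genes chosen after their values were seen, to show the spread between tumors. Tumor 1 is highest for the colonocyte, goblet and enteroendocrine genes *Slc26a3*, *Zg16* and *Insl5* and for *Jchain*, and tumor 3 for the squamous keratins *Krt6a* and *Krt14*.

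*Cbfa2t3*, the gene of MTG16, was at 1081, 1135 and 1206 normalized reads in crypts and 1101, 834 and 937 in tumors, 1141 ± 62.3 (SD, n = 3) and 957 ± 135 (SD, n = 3) as means (log2 difference -0.26 ± 0.13 (SE), adjusted p = 0.106). The groups overlapped through tumor 1. Without tumor 1 the difference was -0.37 (adjusted p = 0.0297), and against 4 WT crypt isolates of the colony that carries the *Mtg16* null allele it was -0.72 (adjusted p = 0.00852). Of 10 genes of the MTG family, the E proteins and their Id inhibitors, 6 were called higher, 1 lower and 3 not called (median 0.67). Among all genes 34% were called higher and 29.4% lower. The lower calls were 0 without tumor 2, crypt isolate 2 or crypt isolate 3, and 2 without tumor 1. They were also 0 with levels scaled to the pan-epithelial genes or library totals. *Tcf4*, which encodes the E protein E2-2, was at 1728, 1876 and 1803 in crypts and 8548, 9377 and 7045 in tumors (log2 difference 2.20 ± 0.12 (SE), adjusted p = 1.50e-06), *Tcf3*, which encodes E12 and E47, at 2831, 2646 and 2514 and 5186, 5667 and 6831 (log2 difference 1.14 ± 0.12 (SE), adjusted p = 5.00e-05), and *Id2*, an inhibitor of E proteins, at 503, 543 and 582 and 1761, 1803 and 1602 (log2 difference 1.66 ± 0.11 (SE), adjusted p = 4.73e-06). The tumors exceeded the crypts for all 3. Stroma and leukocytes express *Tcf4*, and their markers moved with it, a part that was not tested.

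The same contrast in T/T mice, 3 tumors against 4 distal crypt isolates with no library shared, gave 5068 genes higher (33.3%) and 4351 lower (28.6%) of 15203, of which 2540 (16.7%) and 387 (2.55%) by at least 4-fold. Of the 2412 genes at least 4-fold higher in WT, 2385 were tested in T/T and 2360 were called higher there, and of the 506 at least 4-fold lower 504 were tested and 480 called lower. *Notum* differed by 10.18 in T/T and 11.27 in WT on the log2 scale, *Axin2* by 2.57 and 2.71, *Slc26a3* by -5.49 and -6.44, and *Cdx2* by -3.29 and -2.54. Wnt feedback and target genes had a median of 3.05 with 21 of 22 called higher, fibroblast markers 9.56, colonocyte genes -1.78 and enteroendocrine genes -1.90. T/T crypt isolate 4 stood above the other T/T crypts in summed fibroblast markers (1995, next 447) and colonocyte genes (1410910, next 1137990). A direct test of the difference between the genotypes called 0 of 15120 genes in limma and 0 in edgeR, with 523 (3.46%) at an unadjusted p under 0.05. *Reg3b* had one of the wider gaps among the named genes, 3.36 in T/T against 0.22 in WT (adjusted p of the difference 0.845), and for *Cbfa2t3*, which carries the point mutation in T/T mice, the differences were -0.65 and -0.26 (adjusted p of the difference 0.845).

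Another reference, which had met DSS but not AOM, was 3 libraries of WT crypts of the same colony. They were isolated after 1 course of 2% DSS for 5 days and 4 days of recovery. From the shortest to the longest of 5 classes of transcript length the median log2 difference ran from 0.14 to -0.23 in DSS crypts against baseline crypts, from -0.09 to 0.26 in WT tumors against baseline crypts and from -0.10 to 0.94 in WT tumors against DSS crypts, and the part of this trend in the counts of the DSS comparisons was not tested. The DSS comparisons share the tumor and baseline crypt libraries with those above, so values are set side by side only. Tumors against DSS crypts gave 6513 genes higher (43.9%) and 4475 lower (30.2%), 3451 (23.3%) and 585 (3.94%) of them by at least 4-fold. DSS crypts against baseline crypts gave 2460 higher (16.6%) and 3565 lower (24%), 77 (0.519%) and 1168 (7.88%) of them by at least 4-fold. The counts of higher and lower genes were unstable, at 1044 and 1992 without DSS isolate 1, 1378 and 2362 without DSS isolate 2, 3831 and 4768 without DSS isolate 3, 1667 and 2375 without baseline isolate 1, 1285 and 2276 without baseline isolate 2 and 1658 and 2599 without baseline isolate 3, and 538 genes were higher under the pan-epithelial scaling. The genes at least 4-fold lower were 745 without DSS isolate 2 and 1877 without DSS isolate 3. *Notum* was at 10.5, 11.8 and 13.4 normalized reads in the DSS crypts, *Axin2* at 2261, 2122 and 1770.1 and *Slc26a3* at 11229, 9498 and 29704. On the log2 scale these 3 genes differed from baseline crypts by 2.15, -0.02 and -1.73 in DSS crypts and by 11.27, 2.71 and -6.44 in tumors. Fibroblast markers were higher in tumors than in DSS crypts for 14 of 14 genes, Wnt feedback and target genes for 18 of 21 and enteroendocrine genes lower for 16 of 19.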

How the data were processed

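Per the labels and the study's methods, the authors trimmed reads with fastp 0.20.0, quantified them with Salmon 1.3.0 against mm10 and deposited gene values as DESeq2 1.26.0 normalized counts, a signal that is comparable within a table only. Each deposited value was a whole multiple of what 1 read is worth in its library (tolerance 0.05 reads), so reads were recovered and the tumor and crypt tables joined on the 17564 gene IDs in both. Transcripts shared by close paralogs were divided by estimation, and genes near the minimum of 2 reads per table may be missing from one table.

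Reads were rescaled by TMM (edgeR 4.0.16). Genes with a mean of at least 10 normalized reads over the 6 libraries were tested by limma 3.58.1 with a trended variance on log2(normalized reads + 1), two-sided, with Benjamini-Hochberg adjustment over all genes and calls at 0.05. Fold changes on that scale understate low genes. For genes with no crypt reads a bound was set with 3 reads over the crypt group, and for 1 to 3 crypt reads a 95% counting interval is given. Both cover counting error only. Labels do not say that replicates of a group came from separate mice throughout, so p-values measure the spread between these libraries. An exact permutation test of 3 against 3 cannot go below p = 0.1. Same-numbered tumors and crypts did not deviate together (correlations of deviations 0.004, 0.02 and 0.04), so numbers were not used as pairs. Genes named were the first gene and the 3 largest called differences of each list, the 8 largest each way with a mean of 1000 or more and no overlap, the 8 highest genes of the tumor table alone, and *Cbfa2t3*, plus genes said to be chosen after their values were seen. A few genes that this rule names are not reported here. The members and the gene lists were chosen with earlier results of these data known. Gene positions are those of the GRCm38 annotation.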

Additional observations from a re-analysis of the deposited data

Results flagged for a closer look

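Among the WT tumor and crypt libraries, signals outside the comparisons came from sex-linked transcripts. The WT tumor with the most *Xist* reads also held 803 reads of 4 Y-linked genes, where the WT crypt isolate with abundant *Xist* held 2. The WT tumor numbered 3 held 1633 *Xist* reads beside its Y-linked reads, where the WT crypt isolates with Y-linked reads held at most 5.

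Among the 4 T/T distal crypt isolates, which entered only the T/T contrast, a library lay far from the other 3 for 7 of 30 summed gene lists in the ratio of its gap from the nearest library to the whole range (Dixon's test). It was T/T crypt isolate 4 for 5 of the lists, isolate 1 for T and NK cell markers and isolate 3 for matrix proteases and inhibitors. Chance gives about 1 such flag in 20 lists. The highest library had a summed level of 1995 normalized reads of fibroblast markers (next 447), 2613 of smooth muscle and pericyte markers (next 159), 2005 of T and NK cell markers (next 1293), 1410910 of surface colonocyte genes (next 1137990) and 980.3 of red blood cell genes (next 145). The lowest library had 3761 of matrix proteases and inhibitors (next 4652) and 22530.2 of claudins (next 30471). Groups of 3 were not screened in this way.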

How the results depend on the processing

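Of the 117 named genes tested, 107 kept their direction and call under all 17 alternatives. With library totals 7728 genes were higher in WT tumors and 2460 lower (75.9% of calls higher), and with the pan-epithelial scaling 2043 were lower. Under that scaling T/T tumors had 9475 genes higher, 1626 lower and 173 at least 4-fold lower, tumors against DSS crypts 9894, 1664 and 264, and DSS crypts against baseline crypts 538 higher and 42 at least 4-fold higher. The difference in *Slc2a1* turned to 0.34 with library totals and 0.38 with the pan-epithelial scaling, and that in *Reg3b*, over the fits that left out 1 library, ranged from -0.66 without crypt isolate 3 to 0.64 without crypt isolate 1, and was 2.65 against the WT crypts of the null-allele colony. Leaving out each replicate gave 1044 to 3831 genes higher, 1992 to 4768 lower, 62 to 96 at least 4-fold higher and 745 to 1877 at least 4-fold lower in DSS crypts against baseline crypts, and 0 to 1 genes for the genotype difference, the 1 coming without T/T crypt isolate 3 or 4. For WT tumors against crypts it gave 4373 to 5103 higher, 3802 to 4631 lower, 2319 to 2476 at least 4-fold higher and 467 to 577 at least 4-fold lower. With the replicate number as a block 5071 genes were higher and 4388 lower in WT tumors, 2416 and 505 of them by at least 4-fold, and the pairing changed no named gene's call. Removing a trend of the difference with transcript length, an alternative chosen after seeing the data, gave 5289 higher and 4203 lower. The cause of these changes was not tested. Differences of genes with few crypt reads are limited by depth, since 3 reads over the group are the floor.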
